A study of Homo sapiens with 36 samples.

Results

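A set of 10 genes of the endoplasmic reticulum (ER) stress response, listed by name, was followed through 12 culture conditions of the ovarian cancer line A2780. They are HSPA5, HSP90B1, DNAJB9, DNAJC3, XBP1, HERPUD1, SDF2L1, PDIA4, PDIA6 and CALR, and they make up 10 of the 57820 genes in the count table. All 10 were found and all 10 had at least 160 reads in every library, so none was lost to a filter on low counts. The list was set beside genes of the ATF4 pathway and amino acid response. The question was whether serine and glycine withdrawal moved both sets of genes together.

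A2780 is an ovarian cancer cell line that is sensitive to platinum drugs and is called wt here. The cis cells were selected from A2780 under long treatment with cisplatin and are resistant to it, and the cis SSP cells, named for the serine synthesis pathway, are cis cells that resumed growth after a period without serine and glycine. Each of the 3 lines was grown in complete medium or in medium without serine and glycine (-SG), each with or without carboplatin (carbo), a platinum drug that crosslinks DNA. The labels give the carboplatin dose as 6 M, which cannot be read as a working concentration, and give no exposure time. The study used 6 µM in growth and tracer experiments on wt and cis cells. Its RNA sequencing methods name neither dose nor exposure time. All 3 lines descend from 1 parental line, and each condition had 3 RNA sequencing libraries, which the study calls technical replicates, so that p-values measure the spread between libraries and not between independent cultures. Libraries are numbered 1 to 36 as in the labels.

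Proteins that enter the secretory pathway fold in the ER with the help of chaperones and of enzymes that form disulfide bonds. When unfolded proteins accumulate, 3 sensors in the ER membrane (IRE1, PERK and ATF6, encoded by ERN1, EIF2AK3 and ATF6) start the unfolded protein response. IRE1 splices XBP1 mRNA and ATF6 is cleaved to a transcription factor, and both act on promoters of ER chaperone genes. PERK phosphorylates the translation factor eIF2α, as does the amino acid sensor GCN2, and either kinase raises translation of the transcription factor ATF4. ER stress and amino acid shortage therefore share the ATF4 arm, whereas the chaperone genes are classically tied to the ER arms. That tie need not be exclusive, and the promoter window of HERPUD1 also held a motif read by ATF4.

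The promoters of 7 of the 10 genes held an ER stress response element, the sequence that classically ties a gene to the ER arms, and these stretches are shown because genes that carry the same element moved in opposite directions in the data. Windows ran from 250 bases before to 50 bases after each RefSeq start site (assembly GRCh38.p14), and all 10 genes matched at least 1 window. The element ERSE (CCAAT, then any 9 bases, then CCACG, on either strand) was in 27 of 35116 windows, 0.0769%, and in those of HSPA5, HSP90B1, XBP1, PDIA6 and CALR. The shorter element ERSE-II (ATTGG, then any 1 base, then CCACG, on either strand) was in 19 of 35116 windows, 0.0541%, and in those of HERPUD1 and SDF2L1. In the lines that follow, capitals mark the fixed letters of the element, and up to 30 bases are given on both sides, 5′ to 3′ on the strand of the gene. The HSPA5 stretch is chr9:125241361-125241439 on the minus strand, with the element starting 66 bases before the start site.
HSPA5: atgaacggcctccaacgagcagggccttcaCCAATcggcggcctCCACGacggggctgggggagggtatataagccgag
The HSP90B1 window held 2 copies, and the one nearer to the start site, 89 bases before it, is in chr12:103930291-103930369 on the plus strand and reads in reverse.
HSP90B1: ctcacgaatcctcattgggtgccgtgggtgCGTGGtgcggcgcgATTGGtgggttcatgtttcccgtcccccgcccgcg
The XBP1 stretch is chr22:28800573-28800651 on the minus strand, 52 bases before the first of 2 start sites.
XBP1: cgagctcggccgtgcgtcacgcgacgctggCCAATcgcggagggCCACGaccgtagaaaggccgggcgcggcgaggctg
The PDIA6 stretch is chr2:10812823-10812901 on the minus strand, 86 bases before the second of 2 start sites.
PDIA6: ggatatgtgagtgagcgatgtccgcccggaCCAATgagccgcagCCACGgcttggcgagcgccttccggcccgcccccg
The CALR stretch is chr19:12938359-12938432 on the plus strand, reads in reverse and begins 225 bases before the start site.
CALR: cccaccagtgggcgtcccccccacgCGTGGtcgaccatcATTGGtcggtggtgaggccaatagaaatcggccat
The HERPUD1 stretch is chr16:56931995-56932065 on the plus strand, with ERSE-II starting 117 bases before the start site.
HERPUD1: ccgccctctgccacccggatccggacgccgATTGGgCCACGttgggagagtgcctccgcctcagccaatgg
The SDF2L1 stretch is chr22:21642084-21642154 on the plus strand, with ERSE-II in reverse from 188 bases before the start site.
SDF2L1: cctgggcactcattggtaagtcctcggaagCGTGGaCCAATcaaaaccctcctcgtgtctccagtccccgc
No ERSE or ERSE-II was in the windows of DNAJB9, DNAJC3 or PDIA4, which says only that these letters are not in those windows. The letters CCACG, which lie inside both elements, were in 38.1% of all windows and in those of all 10 genes. A motif read by ATF4 and its partners (TGATGNAA, either strand) was in 3.62% of all windows and in that of HERPUD1 among the 10 genes. It was in the windows of 7 of 21 matched genes of the ATF4 pathway and amino acid response list.

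Expression was measured as read counts over gene exons, and levels are given as CPM, which are counts scaled to a common library size, after TMM scaling over the 36 libraries. Reads on genes numbered 13074937 to 20441582 per library. Libraries 25 (cis SSP) and 32 (cis SSP -SG) stood apart from the other libraries of their conditions, and libraries 23 and 24 (both cis -SG carbo) had 17.9% and 14.9% of reads on no gene against at most 9.31% in the other libraries. Counts of called genes that rest on these libraries are given with and without them. PHGDH, the first enzyme of serine synthesis, averaged 472 ± 13.95 CPM in wt, 151 ± 4.36 in cis and 319 ± 75.5 in cis SSP cells (SD, n = 3), or 276 in the cis SSP libraries other than 25. Of 8 markers of ovarian and epithelial carcinoma cells, the defining PAX8, MUC16 and CDH1 stayed at or under 0.632 CPM in every library, and the 8 summed to between 1.83 and 23.6 CPM in wt, 16.5 and 46.2 in cis and 9.78 and 19.96 in cis SSP libraries. KRT18 was the highest of them, with a median of 14.3 CPM. The 3 leukocyte markers summed to at most 0.201 CPM. The 4 fibroblast-associated genes (COL1A1, COL1A2, DCN, LUM) summed to between 513 and 1793 CPM in the wt libraries, 2.11 and 5.72 in the cis libraries and 35.8 and 53.0 in the cis SSP libraries, and their part in differences between lines was not tested.

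Counts were tested with the quasi-likelihood test of edgeR, each comparison fitted on its own libraries, with Benjamini-Hochberg adjustment over all genes tested; a gene was called at an adjusted p under 0.05. Differences are given on the log2 scale with their standard error (SE). Large shares of all genes passed the test in many comparisons, so counts of called genes are read against the share of all genes called in the same comparison.

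**Figure D1:**
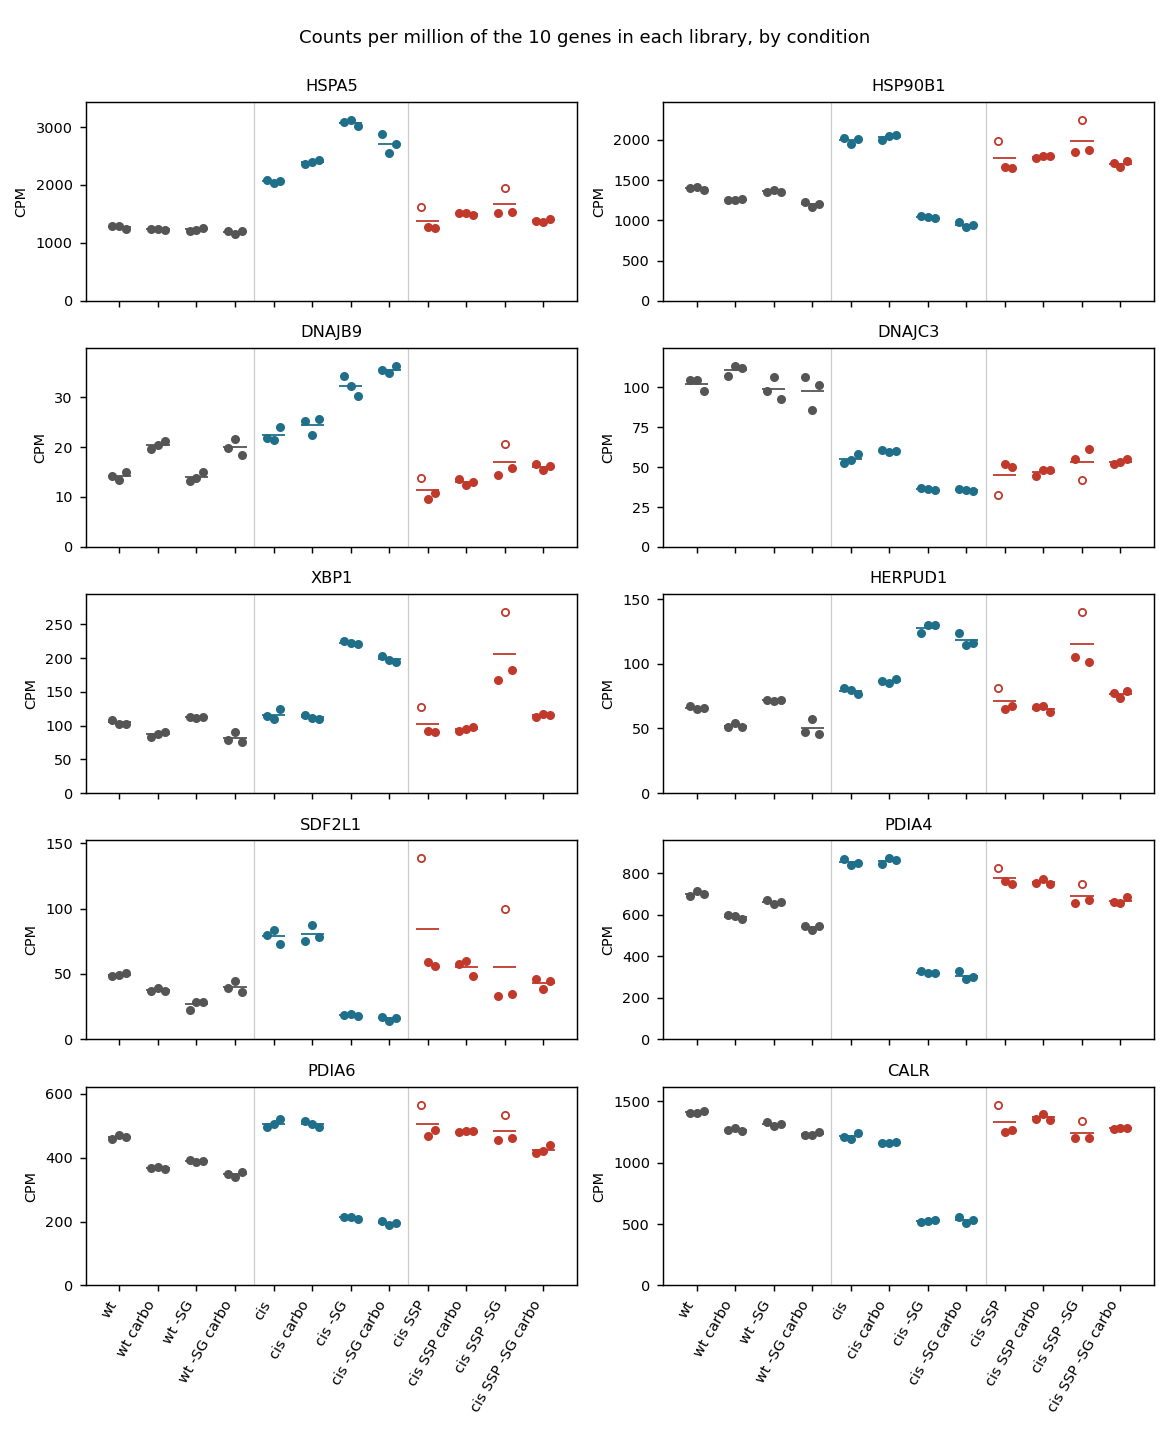
Each panel plots 1 gene, with CPM on the y axis (from 0) and the 12 conditions on the x axis; points are libraries, short lines are means of 3 libraries, grey is wt, blue is cis, red is cis SSP, and open points are libraries 25 and 32. In the blue cis -SG libraries HSPA5 lies between 3019 and 3123 CPM, above all other conditions, and PDIA4 between 318 and 326, below all conditions other than cis -SG carbo.

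In untreated cells the resistant line had more mRNA of most of these genes than the sensitive line. Of the 10 genes, 8 were higher in cis than in wt cells and 2 were lower, all 10 called, where 78.5% of 14431 genes, 39.4% up and 39.1% down, were called. HSPA5 (chr9:127997132-128003661 in GRCh37, minus strand), which encodes BiP, the main HSP70 chaperone of the ER lumen that also holds the 3 sensors inactive, stood at 1283, 1294 and 1246 CPM in wt and 2082, 2036 and 2064 CPM in cis libraries. The groups were far apart, and the difference was 0.67 ± 0.02 (SE; adjusted p = 1.73e-28 by edgeR). DNAJB9 (chr7:108210311-108215294, plus strand), a co-chaperone of BiP that holds IRE1 in check, was the lowest of the set at 14.1, 13.3 and 14.9 CPM in wt and 21.7, 21.3 and 24.04 CPM in cis libraries, a difference of 0.64 ± 0.07. SDF2L1 (chr22:21996591-21998588, plus strand), which works with BiP and its co-chaperones, differed by 0.66 ± 0.05 and HSP90B1 (chr12:104323885-104347709, plus strand), the HSP90 of the ER, by 0.49 ± 0.02.

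DNAJC3 and CALR went the other way. DNAJC3 (chr13:96329393-96447242, plus strand), a co-chaperone that delivers unfolded proteins to BiP, stood at 104, 105 and 97.7 CPM in wt and 52.8, 54.7 and 58.4 CPM in cis libraries, with no overlap and a difference of -0.90 ± 0.04. Its neighbours within 10 Mb on chromosome 13 were lower too: 19 of 20 had lower levels in cis than in wt cells, with a median difference of -1.05, and 19 of 20 in cis SSP against wt cells, with a median of -1.31. For HSPA5 the corresponding count was 46 of 127 neighbours lower. CALR (chr19:13049392-13055303, plus strand), the calcium-binding chaperone calreticulin that folds glycoproteins, differed by -0.23 ± 0.02. The remaining 4 genes were higher in cis cells by 0.11 ± 0.02 (PDIA6) to 0.26 ± 0.02 (PDIA4).

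In untreated cis SSP cells BiP and DNAJB9 mRNA were lower than in cis cells. With all libraries, HSPA5 was lower than in cis cells by a difference of -0.60 ± 0.12 and DNAJB9 by -0.99 ± 0.14, and these 2 were the genes called of the 10, where 29.1% of 13714 genes, 15.8% up and 13.3% down, were called. Library 25 read 1617 CPM for HSPA5 against 1267 and 1265 in the other cis SSP libraries, and 138 CPM for SDF2L1 against 58.8 and 56.2. Without it 8 genes were lower in cis SSP than in cis cells, where 65.4% of 14154 genes, 32.9% up and 32.5% down, were called, with HSPA5 at -0.69 ± 0.03, DNAJB9 at -1.11 ± 0.09 and SDF2L1 at -0.44 ± 0.06, the last turning from 0.07 ± 0.34 with library 25. Against wt cells, DNAJC3 was the 1 gene called, at -1.23 ± 0.20 with all libraries (42.4% of 14569 genes, 20.7% up and 21.7% down, called) and -1.03 ± 0.04 without library 25. Without that library 3 genes were higher and 4 lower than in wt cells (73.9% of 14997 genes, 36.4% up and 37.5% down, called), and HSPA5 differed from wt by -0.04 ± 0.02.

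Compared per length of the canonical transcript, calreticulin and HSP90B1 mRNA led the set in wt cells at 741 and 503 CPM per kb, followed by HSPA5 at 325, PDIA4 at 253 and PDIA6 at 203. SDF2L1 and XBP1 had levels of 59.8 and 58.5 CPM per kb, HERPUD1 23.2 and DNAJC3 18.3, and DNAJB9 was lowest at 5.87. The order was not the same in deprived cis cells. There HSPA5 alone made up between 54.5% and 55.1% of the summed CPM of the 10 genes, not scaled by length. That share was 29.33% to 29.65% in cis cells and 22.5% to 23.01% in wt cells, both in complete medium without the drug.

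Serine and glycine withdrawal split the set in cis cells. There, 4 genes rose (HSPA5, DNAJB9, XBP1 and HERPUD1) and 6 fell (HSP90B1, DNAJC3, SDF2L1, PDIA4, PDIA6 and CALR), all 10 called, where 75% of 14122 genes, 37.6% up and 37.4% down, were called. At a change of at least 1.5-fold 3 genes rose and 5 fell, against 19.3% and 13.3% of all genes. The median difference of the 10 genes was -0.71, and that of all genes tested 0.01. The call of all 10 held when any 1 library was left out.

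The genes that rose were the master chaperone BiP, the co-chaperone DNAJB9, a transcription factor and a degradation factor. HSPA5 went from 2082, 2036 and 2064 CPM in cis to 3083, 3123 and 3019 CPM in cis -SG libraries, a rise of 0.64 ± 0.03 (adjusted p = 2.2e-25 by edgeR), or 1.56-fold. The lowest deprived library was well above the highest library in complete medium. XBP1 (chr22:29190543-29196585, minus strand), the transcription factor that IRE1 activates by splicing, rose 2.00-fold, from 114, 110 and 125 CPM to 225, 223 and 221 CPM. Gene counts do not tell spliced from unspliced XBP1. HERPUD1 (chr16:56966054-56978776, plus strand), an ER membrane protein of the machinery that sends misfolded proteins to the proteasome, went from 81.4, 79.7 and 76.5 CPM to 124, 130 and 130 CPM, a rise of 0.75 ± 0.04. DNAJB9 went from 21.7, 21.3 and 24.04 CPM to 34.2, 32.2 and 30.2 CPM, a rise of 0.58 ± 0.06. In all 4 genes the groups were apart.

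The genes that fell were the other chaperones, the BiP partners DNAJC3 and SDF2L1, and the disulfide enzymes. SDF2L1 moved most, from 79.8, 83.8 and 72.7 CPM to 18.7, 19.3 and 18.2 CPM, a difference of -2.01 ± 0.06 (adjusted p = 1.24e-31 by edgeR), or 4.03-fold. PDIA4 (chr7:148700154-148725754, minus strand), a protein disulfide isomerase, went from 867, 839 and 847 CPM to 326, 320 and 318 CPM, a difference of -1.34 ± 0.03. PDIA6 (chr2:10923517-10978103, minus strand), another disulfide isomerase, which also restrains the sensors, went from 494, 504 and 521 CPM to 215, 215 and 209 CPM. The 2 isomerases fell side by side, by 2.54-fold and 2.28-fold. CALR went from 1207, 1190 and 1242 CPM to 514, 527 and 532 CPM, a difference of -1.15 ± 0.03, and HSP90B1 from 2020, 1950 and 2008 CPM to 1054, 1043 and 1030 CPM, a difference of -0.87 ± 0.03. DNAJC3 fell less, from 52.8, 54.7 and 58.4 CPM to 36.7, 36.4 and 35.7 CPM, a difference of -0.55 ± 0.05. None of these groups overlapped. Exons of HSP90B1, PDIA6 and CALR overlap those of other genes on the opposite strand, and reads of the 2 strands cannot be told apart here, since the strand setting of the counting is not given in the sources used here.

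**Figure D2:**
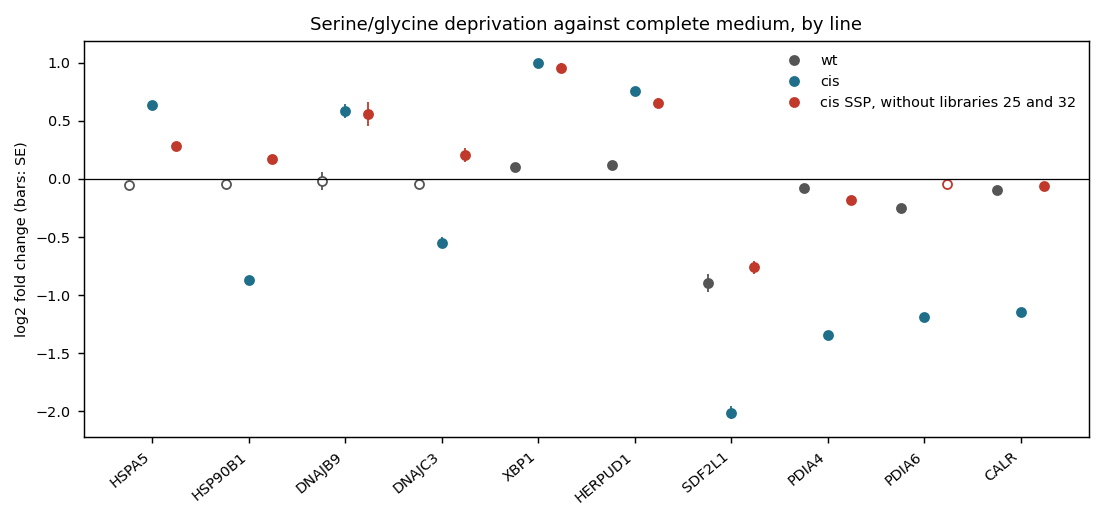
The y axis is the log2 fold change of medium without serine and glycine against complete medium (bars: SE) for the 10 genes on the x axis, in wt (grey), cis (blue) and cis SSP cells without libraries 25 and 32 (red); filled points passed an adjusted p under 0.05 and open points did not. The blue points range from -2.01 for SDF2L1 to 1.0 for XBP1, whereas the grey points, other than SDF2L1 at -0.90, lie between -0.25 and 0.12.

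Genes with the same promoter element were on both sides of this split. Of the genes with ERSE, HSPA5 and XBP1 rose, and HSP90B1, PDIA6 and CALR fell. Of the 2 with ERSE-II, HERPUD1 rose by 0.75 and SDF2L1 fell by 2.01 on the log2 scale. Beyond the set, 37 genes held ERSE or ERSE-II, of which 21 were tested. Among those 21, 2 rose and 17 fell in deprived cis cells, with a median of -0.40, where 37.6% of all genes rose and 37.4% fell. The 2 that rose were SYNPO, an actin-binding protein gene, by 1.31, and the ER chaperone gene HYOU1, by 0.10.

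The levels of BiP and of the disulfide isomerase PDIA4 give 1 example of the split, chosen after the values were seen. The ratio of HSPA5 to PDIA4 CPM was between 1.78 and 1.87 in wt libraries and between 2.40 and 2.44 in cis libraries. In cis -SG libraries it was between 9.45 and 9.75, and in cis -SG carbo libraries between 8.77 and 8.99. In cis SSP -SG libraries it was 2.31, 2.60 and 2.31, with library 32 highest. The summed CPM of the 10 genes lay between 6869 and 7037 in cis and between 5542 and 5670 in cis -SG libraries. This scaled sum, which the most abundant genes dominate, was thus lower in deprived cells although the BiP level was higher.

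**Figure D3:**
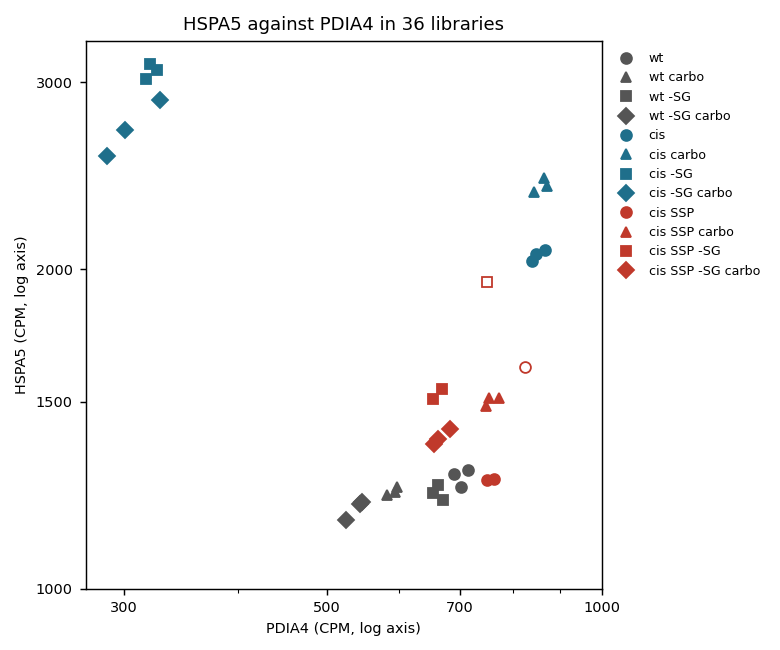
HSPA5 on the y axis is plotted against PDIA4 on the x axis, both in CPM on log axes, with 1 point per library; grey is wt, blue is cis, red is cis SSP, circles are complete medium, triangles carboplatin, squares -SG, diamonds -SG with carboplatin, and open points are libraries 25 and 32. The 6 deprived cis libraries lie at upper left, with HSPA5 between 2553 and 3123 CPM and PDIA4 between 288 and 329 CPM, apart from the other 30 libraries.

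In wt cells the same withdrawal left BiP mRNA near its level. HSPA5 read 1213, 1229 and 1251 CPM in wt -SG libraries, which overlap the wt libraries, and the difference was -0.05 ± 0.02 (adjusted p = 0.0586 by edgeR; 95% interval -0.09 to -0.01). SDF2L1 was the exception, going from 48.4, 48.9 and 50.7 CPM to 22.6, 28.6 and 28.8 CPM, a difference of -0.90 ± 0.07 with no overlap. Of the 10 genes, 2 rose (XBP1 by 0.10 ± 0.03 and HERPUD1 by 0.12 ± 0.04) and 4 fell (SDF2L1, PDIA4, PDIA6 and CALR), where 49.2% of 14284 genes, 24.1% up and 25.1% down, were called. Apart from SDF2L1, no called difference reached 1.5-fold, and PDIA6 came next at -0.25 ± 0.02; of all genes 3.82% rose and 3.35% fell by that much.

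The difference between the lines was tested itself, as the interaction of line and medium. All 10 genes differed in their response between cis and wt cells, where 54% of 15418 genes, 27.1% up and 26.9% down, did. HSPA5, DNAJB9, XBP1 and HERPUD1 responded more upward in cis cells, by 0.62 ± 0.10 (DNAJB9) to 0.92 ± 0.05 (XBP1). The other 6 responded more downward, from -0.49 ± 0.06 (DNAJC3) to -1.25 ± 0.03 (PDIA4, adjusted p = 4.23e-27 by edgeR). SDF2L1, which fell in both lines, fell further in cis cells, at -1.10 ± 0.11.

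In cis SSP cells the outcome of withdrawal rested on libraries 25 and 32. With all 6 libraries none of the 10 genes was called by edgeR, where 3 of 13736 genes (0.0218%) were called; 3 of the 10 had an unadjusted p under 0.05 and DESeq2 called 2. XBP1 read 127, 91.6 and 90.5 CPM in cis SSP and 168, 268 and 183 CPM in cis SSP -SG libraries, where the values 127 and 268 are libraries 25 and 32. Both libraries were the highest of their condition, and the difference was 1.01 ± 0.22.

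Without libraries 25 and 32, 6 of the 10 genes rose and 3 fell, where 35.9% of 13925 genes, 18.9% up and 17% down, were called. XBP1 rose by 0.95 ± 0.04 (adjusted p = 5.71e-16 by edgeR), HERPUD1 by 0.66 ± 0.04 and DNAJB9 by 0.56 ± 0.10. HSPA5 rose by 0.28 ± 0.02, from 1267 and 1265 CPM to 1509 and 1541 CPM. HSP90B1 and DNAJC3, which fell in cis cells, rose by 0.18 ± 0.02 and 0.21 ± 0.06. SDF2L1 fell by 0.76 on the log2 scale, PDIA4 by 0.18 and CALR by 0.06, and PDIA6 differed by -0.04 ± 0.03 (adjusted p = 0.239 by edgeR). These values rest on 2 libraries a condition.

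The test of the difference between cis SSP and cis cells gave 4 genes with all libraries, HSP90B1 (1.06 ± 0.15), PDIA4 (1.19 ± 0.12), PDIA6 (1.14 ± 0.14) and CALR (1.07 ± 0.13), where 17.1% of 14806 genes, 6.86% up and 10.3% down, were called. All 4 fell in cis cells. In cis SSP cells PDIA4, PDIA6 and CALR had smaller downward differences and HSP90B1 an upward one (0.18 ± 0.14). None of these 4 passed the test within cis SSP cells with all libraries. Without libraries 25 and 32, DNAJC3 (0.75 ± 0.08) and SDF2L1 (1.25 ± 0.08) joined them, and HSPA5 rose less in cis SSP than in cis cells, at -0.36 ± 0.04 (55.4% of 15057 genes, 28.8% up and 26.6% down, called). For XBP1 the difference in response was -0.05 ± 0.06 and for HERPUD1 -0.10 ± 0.06, neither passing the test.

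The split in cis cells was also present under carboplatin. Between cis -SG carbo and cis carbo cells the same 4 genes rose and the same 6 fell, all 10 called, where 70.2% of 14236 genes, 35.2% up and 35% down, were called. The rise of HSPA5 was smaller under the drug, at 0.22 ± 0.05, from 2363, 2397 and 2439 CPM to 2885, 2553 and 2706 CPM. SDF2L1 differed by -2.29 ± 0.08 and PDIA4 by -1.45 ± 0.05. Without libraries 23 and 24 all 10 were called in the same directions, with HSPA5 at 0.32 ± 0.03 and SDF2L1 at -2.17 ± 0.09, but that leaves library 22 alone in its condition, and the fit assumes that it varies like the cis carbo libraries. The conditions share no library with the drug-free comparison.

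In the 2 other lines under carboplatin the effect of the medium was small. In wt cells none of the 10 genes was called by edgeR or by DESeq2, where 0.72% of 14454 genes were called, and 2 had an unadjusted p under 0.05; differences ran from -0.19 ± 0.08 (DNAJC3) to 0.07 ± 0.08 (SDF2L1). Without library 11, the second of wt -SG carbo, 4 genes were called. In cis SSP cells 4 genes rose (DNAJB9, DNAJC3, XBP1 and HERPUD1, by 0.19 to 0.32) and 4 fell (HSPA5, PDIA4, PDIA6 and CALR, by 0.09 to 0.18), where 9.76% of 13747 genes, 4.93% up and 4.83% down, were called. Those libraries do not include 25 or 32, and HSPA5 read 1513, 1513 and 1486 CPM with serine and glycine and 1384, 1368 and 1414 CPM without.

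Carboplatin itself moved the set downward in wt cells. In complete medium 2 genes rose and 8 fell, all 10 called, where 77.8% of 14639 genes, 38.9% up and 39% down, were called. No gene of the set reached 1.5-fold, where 19.2% of all genes rose and 17.8% fell by that much. DNAJB9 rose from 14.1, 13.3 and 14.9 CPM to 19.6, 20.4 and 21.2 CPM, by 0.53 ± 0.07 (adjusted p = 4.75e-13 by edgeR), and DNAJC3 by 0.12 ± 0.03. The groups of DNAJB9 did not overlap. SDF2L1 differed by -0.37 ± 0.05, HERPUD1 by -0.34 ± 0.04, PDIA6 by -0.33 ± 0.02 and HSPA5 by -0.04 ± 0.02, the smallest change of the 10.

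In cis cells the drug raised 3 of the 10 genes, HSPA5 (0.23 ± 0.02), HERPUD1 (0.14 ± 0.04) and DNAJC3 (0.13 ± 0.04), where 20.1% of 13458 genes, 9.27% up and 10.8% down, were called. HSPA5 went from at most 2082 to at least 2363 CPM. HSPA5 alone was called without library 18, the third of cis carbo, and by DESeq2. No fit that left out 1 library called all 3 genes. None of the 3 was called in 1 edgeR fit over all libraries, where HSPA5 had an adjusted p of 0.182. The interaction of line and drug was called in 9 genes, all but DNAJC3, where 57.6% of 15300 genes, 30.3% up and 27.2% down, were called. Of these, 8 responded more upward in cis than in wt cells, HERPUD1 most, by 0.48 ± 0.05, and DNAJB9 less, by -0.38 ± 0.10.

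**Figure D4:**
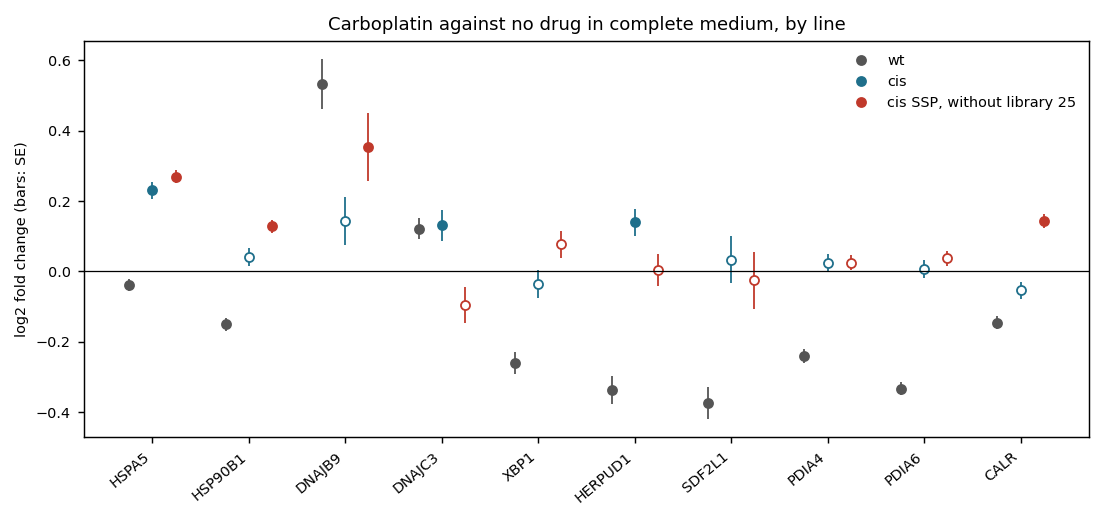
The y axis is the log2 fold change of carboplatin against no drug in complete medium (bars: SE) for the 10 genes on the x axis, in wt (grey), cis (blue) and cis SSP cells without library 25 (red); filled points passed an adjusted p under 0.05 and open points did not. Of the grey points, 8 lie under 0, DNAJB9 is highest at 0.53, and the y axis spans a narrower range than for deprivation.

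In cis SSP cells none of the 10 genes was called under carboplatin by edgeR or DESeq2, with 2.72% of 13885 genes called and no gene of the set at an unadjusted p under 0.05. Without library 25, 4 genes rose, HSPA5 (0.27 ± 0.02), DNAJB9 (0.35 ± 0.10), CALR (0.14 ± 0.02) and HSP90B1 (0.13 ± 0.02), where 41.2% of 14170 genes, 21.9% up and 19.2% down, were called. The response of cis SSP cells differed from that of cis cells in none of the 10 genes with all libraries by edgeR or DESeq2 (0.506% of 14428 genes called; none at an unadjusted p under 0.05), and in 2, CALR (0.20 ± 0.04) and DNAJC3 (-0.22 ± 0.07), without library 25 (14.3% of 14716, 9.38% up and 4.89% down).

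Whether the drug acted differently without serine and glycine was tested in each line. In wt cells SDF2L1 was the gene that stood out: carboplatin lowered it in complete medium and raised it in -SG medium, from 22.6, 28.6 and 28.8 CPM to 39.6, 44.6 and 36.2 CPM, a difference in response of 0.97 ± 0.12 (adjusted p = 1.6e-05 by edgeR). PDIA6 was also called, at 0.16 ± 0.05, where 27.7% of 15247 genes, 14.6% up and 13.1% down, were called. In wt -SG cells the drug also raised DNAJB9 by 0.52 ± 0.09 and lowered 5 genes, among them HERPUD1 by 0.52 and XBP1 by 0.45 on the log2 scale, where 68.9% of 14467 genes, 34.3% up and 34.6% down, were called.

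In cis cells HSPA5 responded upward to carboplatin in complete medium and downward in -SG medium, where it differed by -0.17 ± 0.04, and the difference in response was -0.40 ± 0.05. HERPUD1 (-0.24 ± 0.05) and HSP90B1 (-0.17 ± 0.04) were called as well, where 12.1% of 14797 genes, 5.91% up and 6.17% down, were called. In deprived cis cells 4 genes were lower with the drug (HSPA5, HSP90B1, XBP1 and PDIA6; 22.5% of 14476 genes, 10.9% up and 11.6% down, called), and without libraries 23 and 24 HSPA5 and XBP1 were lower and CALR higher, the spread then coming from the cis -SG libraries alone. Without those libraries the difference in response between media was called in 4 genes, HSPA5 (-0.32 ± 0.04), HERPUD1 (-0.19 ± 0.06), HSP90B1 (-0.12 ± 0.04) and, upward, CALR (0.14 ± 0.04), again with 1 library in the deprived and treated condition. In cis SSP cells none was called by edgeR or DESeq2 with all libraries (0.0281% of 14231 genes; 3 at an unadjusted p under 0.05), and 5 without libraries 25 and 32, XBP1 most, at -0.66 ± 0.05 (15% of 14442 genes, 5.72% up and 9.29% down, called). In deprived cis SSP cells the drug gave no call with all libraries by edgeR (1.47% of 13541 genes; 2 at an unadjusted p under 0.05; 2 by DESeq2), and without library 32 lowered 5 genes and raised 2, SDF2L1 among the latter by 0.38 ± 0.07 (41.1% of 13833 genes, 21.1% up and 19.9% down, called).

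The sensors themselves were among the genes that changed. In deprived cis cells ATF6 mRNA went from a mean of 129 ± 7.13 to 309 ± 4.35 CPM (SD, n = 3), a rise of 1.32 ± 0.03, and ERN1 from 27.7 ± 1.59 to 62.0 ± 3.15 CPM, a rise of 1.22 ± 0.05. EIF2AK3 fell by 0.50 on the log2 scale. Of the 6 genes on the list of sensors and their proteases, 5 rose and 1 fell, where 37.6% of all genes rose and 37.4% fell. In wt cells ATF6 rose by 0.50 ± 0.03 and ERN1 by 0.60 ± 0.07, and both rose more in cis cells, by 0.83 ± 0.05 and 0.64 ± 0.09. Counts of these mRNAs do not measure whether the sensors were active.

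Among other ER genes in deprived cis cells more fell than rose, where 37.6% of all genes rose and 37.4% fell. Of 19 other folding genes 2 rose and 15 fell, with a median of -0.44, and of 19 genes of translocation and trafficking 2 rose and 16 fell, with a median of -0.45. Of the 3 ER lists without the sensors, CRELD2 (-1.64 ± 0.04), MANF (-1.54 ± 0.07) and DERL3 (-1.38 ± 0.05) had the largest falls. CRELD2 and MANF encode secreted or lumenal proteins classically raised by ER stress, and DERL3 a channel component of ER-associated degradation. HSPA13, an HSP70 relative at the ER, rose by 0.96 ± 0.03, and SEL1L, the adaptor of the degradation ligase, by 0.43 ± 0.03. Of 16 genes of ER-associated degradation 5 rose and 8 fell, with a median of -0.06. DERL3 (-1.17 ± 0.09), MANF (-0.61 ± 0.07) and CRELD2 (-0.56 ± 0.05) also had the largest falls of the 3 lists in deprived wt cells. There 4 of the other folding genes rose and 10 fell, and 2 of translocation and trafficking rose and 13 fell. Of the degradation genes 5 rose and 6 fell in wt cells, where 24.1% of all genes rose and 25.1% fell.

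In the list of the ATF4 pathway and amino acid response more genes rose than fell. ER stress and amino acid shortage share the ATF4 arm, so this list does not tell them apart. In deprived cis cells 22 of its 24 genes rose and 1 fell, where 37.6% of all genes rose and 37.4% fell, with a median of 1.11 against 0.01 for all genes. DDIT3, the transcription factor CHOP, rose from 24.4 ± 0.72 to 60.7 ± 3.34 CPM (SD, n = 3). CHAC1, which breaks down glutathione, rose by 1.44 ± 0.05, TRIB3, a pseudokinase downstream of ATF4, by 1.37 ± 0.03, and ASNS, asparagine synthetase, by 0.58 ± 0.03. ATF4 mRNA itself rose by 0.34 ± 0.03.

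In wt cells 20 of the 24 genes rose on withdrawal and 2 fell, where 24.1% of all genes rose and 25.1% fell. Their median was 0.37. Of the 10 ER genes 2 rose and 4 fell there, with a median of -0.05. The other 4, HSPA5 among them, did not pass the test. TRIB3 rose by 0.88 ± 0.04, ASNS by 0.48 ± 0.02 and DDIT3 by 0.37 ± 0.08 there. ATF4 mRNA was lower, at -0.06 ± 0.02, and CHAC1 did not pass the test (-0.06 ± 0.04, adjusted p = 0.249 by edgeR). In cis SSP cells without libraries 25 and 32 all 24 rose, where 18.9% of all genes rose and 17% fell, with a median of 1.02 (2 of 24 were called with all libraries, where 0.0218% of all genes were), and ASNS rose by 1.38 ± 0.03. Under carboplatin in wt cells 6 of the 24 rose and 17 fell, where 38.9% of all genes rose and 39% fell, with a median of -0.56, and ASNS differed by -1.24 ± 0.02. These counts describe lists and were not tested against each other.

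**Figure D5:**
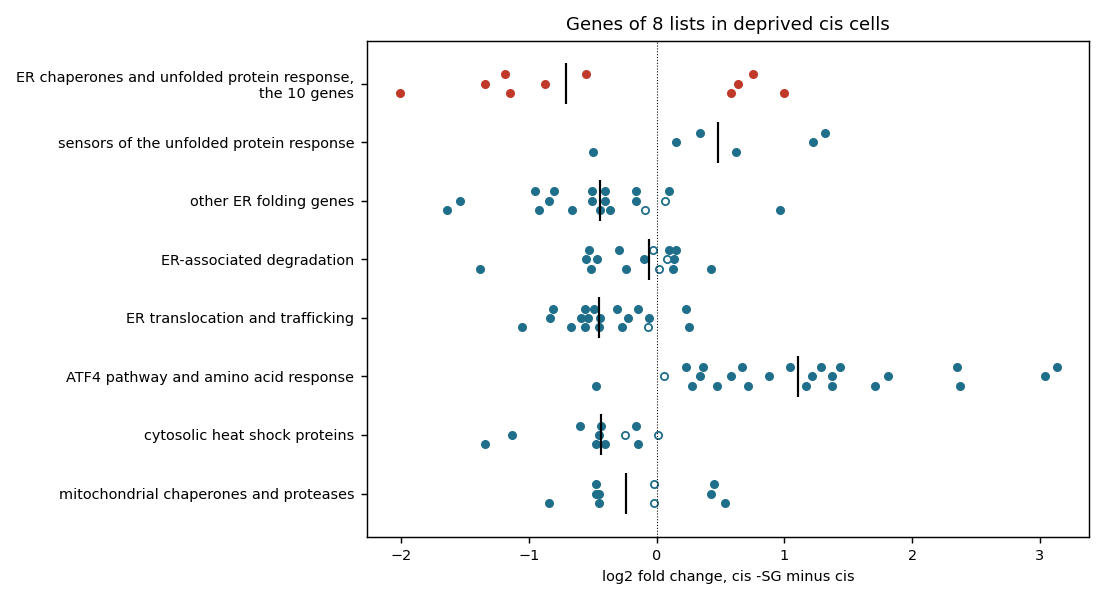
The x axis is the log2 fold change of cis -SG against cis cells, with 1 point per gene of the 8 lists on the y axis; filled points passed an adjusted p under 0.05, open points did not, and black bars are medians. The 24 genes of the ATF4 pathway and amino acid response centre on 1.11, whereas the 10 genes in red lie in 2 groups on both sides of 0.

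Across the 12 condition means (log2 CPM), 5 genes that fell in deprived cis cells, HSP90B1, SDF2L1, PDIA4, PDIA6 and CALR, followed each other, with Pearson correlations between 0.68 (HSP90B1 and CALR) and 0.99 (PDIA4 and PDIA6). The 4 that rose had correlations between 0.55 (DNAJB9 and HERPUD1) and 0.97 (XBP1 and HERPUD1). Between these sides the 20 correlations ran from -0.84 (DNAJB9 and CALR) to -0.10 (HERPUD1 and HSP90B1). DNAJC3, which also fell, had correlations between -0.04 and 0.61 with the other 5 that fell and between -0.76 and -0.35 with the 4 that rose. These are descriptions over 12 points that share 3 lines, the grouping was made after the values were seen, and the deprived cis conditions are 2 of the 12 points.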

How the data were processed

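RNA was sequenced from 36 libraries in 12 conditions, with 3 libraries per condition. The authors deposited raw read counts per gene. Reads had been aligned with STAR to GRCh37.p13 (hg19) and counted over exons with HTSeq and GENCODE annotation, and neither strand nor multimapper settings are given in the sources used here. The 3 rows that name no gene were left out of library sizes and tests, and reads on no feature were 4.21% to 17.9% per library. Total counts on genes ranged from 13074937 to 20441582 per library.

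Differential expression used edgeR 4.0.16 under R 4.3.3 (TMM scaling, filterByExpr, robust quasi-likelihood F-test) on the libraries of each of 22 comparisons, interactions included, with Benjamini-Hochberg adjustment over all genes tested. A gene was called at an adjusted p under 0.05, and 95% intervals are 1.96 SE on both sides. Levels are TMM-scaled CPM computed from the counts. The models were tested on simulated data in which 200 genes changed and all genes shared a common dispersion. Far more genes were called in the data, so scaling under widespread change was not tested. For cis -SG against cis (14014 genes), 100 of 100 genes changed by 2-fold and 99 of 100 changed by 1.5-fold were recovered, with 10 false calls. For cis SSP -SG against cis SSP (13746 genes) 22 and 3 of 100 were recovered, with 3 false calls. For the deprivation response of cis against wt cells 97 and 87 of 100 were recovered, with 5 false calls.

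Alternatives were DESeq2 1.42.0, DESeq2 size factors, total counts, no filter, 1 fit over all libraries, each library left out, and libraries 25 and 32 left out. Leaving out libraries 23 and 24 was chosen after seeing the data. The members and lists were chosen with earlier results of these data known. Besides the 10 genes, the genes named were the 3 sensors, ATF4, DDIT3, ASNS, CHAC1 and TRIB3, PHGDH, at most 3 called genes of largest change per direction from 3 other ER lists, and the 5 genes most alike in level to HSPA5 and to DNAJB9 at a minimum mean of 10 CPM. SYNPO and HYOU1 were named outside this rule, after their values were seen. Gene positions are those of GENCODE mapped to GRCh37, and promoter sequences are from RefSeq (GRCh38.p14).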

Additional observations from a re-analysis of the deposited data

Results flagged for a closer look

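The results that follow stood out because the response of a gene differed between lines or media by a test of the difference itself (interaction in edgeR, log2 scale, adjusted p under 0.05). Between cis and wt cells the response to serine and glycine withdrawal differed by 0.70 for HSPA5, 0.62 for DNAJB9, 0.92 for XBP1 and 0.65 for HERPUD1. For the chaperones and enzymes that fell it differed by -0.82 for HSP90B1, -0.49 for DNAJC3, -1.10 for SDF2L1, -1.25 for PDIA4, -0.93 for PDIA6 and -1.03 for CALR.

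The response to carboplatin differed between cis and wt cells by 0.28 for HSPA5, 0.20 for HSP90B1, -0.38 for DNAJB9, 0.23 for XBP1, 0.48 for HERPUD1, 0.41 for SDF2L1, 0.27 for PDIA4, 0.35 for PDIA6 and 0.10 for CALR. Between cis SSP and cis cells the response to withdrawal differed by 1.06 for HSP90B1, 1.19 for PDIA4, 1.14 for PDIA6 and 1.07 for CALR. Between media, the carboplatin response of wt cells differed by 0.97 for SDF2L1 and 0.16 for PDIA6, and that of cis cells by -0.40 for HSPA5, -0.17 for HSP90B1 and -0.24 for HERPUD1.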

How the results depend on the processing

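Values here are counts of the 10 genes called, with the count of the edgeR fit in brackets. One fit over all libraries gave 2 [6] for wt -SG against wt, 5 [0] for cis SSP -SG against cis SSP, 0 [8] for cis SSP -SG carbo against cis SSP carbo, 6 [10] for wt carbo against wt, 0 [3] for cis carbo against cis, 0 [4] for cis -SG carbo against cis -SG, 5 [0] for cis SSP -SG carbo against cis SSP -SG, 5 [2] for cis SSP against cis and 5 [1] for cis SSP against wt. It gave 4 [9] for the carboplatin response of cis against wt cells, 7 [4] for the deprivation response of cis SSP against cis cells, and 0 [2], 0 [3] and 1 [0] for the carboplatin response between media in wt, cis and cis SSP cells. DESeq2 gave 2 [0] for cis SSP -SG against cis SSP and for cis SSP -SG carbo against cis SSP -SG, 1 [3] for cis carbo against cis and 2 [1] for cis SSP against wt, where total counts also gave 2. Without a filter the carboplatin response between media in wt cells gave 1 [2].

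Without libraries 25 and 32 the counts were 9 [0] for cis SSP -SG against cis SSP, 4 [0] for cis SSP carbo against cis SSP, 7 [0] for cis SSP -SG carbo against cis SSP -SG, 8 [2] for cis SSP against cis and 7 [1] for cis SSP against wt. They were 7 [4] and 2 [0] for the deprivation and carboplatin responses of cis SSP against cis cells, and 5 [0] for the carboplatin response between media in cis SSP cells. SDF2L1 turned direction, to 0.38 for cis SSP -SG carbo against cis SSP -SG and to -0.44 for cis SSP against cis, and with 1 library left out its difference ran from -0.62 to 0.38 and from -0.44 to 0.28; the cause was not tested.

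Leaving out 1 library gave 0 to 4 for wt -SG carbo against wt carbo (4 without wt -SG carbo replicate 2), 1 to 2 for cis carbo against cis, 0 to 4 for cis SSP carbo against cis SSP, 1 to 7 for cis -SG carbo against cis -SG (1 without cis -SG replicate 2 or cis -SG carbo replicate 3, 7 without cis -SG carbo replicate 1), 0 to 7 for cis SSP -SG carbo against cis SSP -SG, 1 to 8 for cis SSP against cis and 1 to 7 for cis SSP against wt. It gave 0 to 2 for the carboplatin response of cis SSP against cis cells, and for that between media 1 to 5 in wt cells (5 without wt -SG carbo replicate 2) and 3 to 8 in cis cells (8 without cis -SG carbo replicate 1). All 10 genes stayed called in cis -SG against cis and in the deprivation response of cis against wt cells whichever library was left out. No paired analysis was possible because the labels run from library 1 to library 36 without numbering replicates; the replicate numbers 1 to 3 used here follow sample order and pair nothing.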

Other observations

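Cytosolic heat shock genes serve protein folding outside the ER. In deprived cis cells 9 of 11 tested fell by edgeR and 2 were not called, with a median of -0.44, where 37.6% of all genes rose and 37.4% fell. In deprived wt cells all 10 tested fell, with a median of -0.41, where 24.1% of all genes rose and 25.1% fell. Under carboplatin in wt cells 7 of 11 rose and 3 fell, with a median of 0.26, where 38.9% of all genes rose and 39% fell. Of 10 mitochondrial chaperones and proteases, 3 rose and 5 fell in deprived cis cells and 6 rose and 3 fell in deprived wt cells, against the same shares of all genes. HSPA1A and HSPA1B are near identical, so reads may be split between them.

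Among 9518 genes with a mean of at least 10 CPM, those whose level over the 12 condition means was most like that of HSPA5 were GTPBP10 (Pearson r = 0.99), CCDC66 (0.98), PHF20L1 (0.98), ZNF131 (0.98) and RIOX2 (0.97). For DNAJB9 they were CCDC82 (0.98), TAF4B (0.96), SDAD1 (0.95), NETO2 (0.95) and ZNF706 (0.95). The 12 points share 3 lines, and none of the other 9 genes of the set is among the 5 most like HSPA5.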
